A study of Rattus norvegicus with 24 samples.

Results

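The genes described here are those that give anterior pituitary cells their identity and their ability to read hypothalamic and dopaminergic signals: the transcription factors Pou1f1 and Pitx1, the releasing-hormone receptors Ghrhr, Gnrhr and Trhr, the dopamine receptor Drd2 and the prohormone convertase Pcsk1. They were measured by the probe sets whose only gene symbol in the array annotation was 1 of these 7 names, which gave 11 probe sets for 6 genes of the 15866 probe sets that were not array controls. No probe set listed for Pcsk1 was found in the annotation used here, so Pcsk1 has no value below. The samples were untreated male Sprague-Dawley rats, an outbred strain fed chow freely under a cycle of light and dark, aged 4, 10, 18 or 24 months. Pituitary, hypothalamus, spleen lymphocyte, liver, kidney and bone were measured at each age, on 1 array a tissue and age (24 arrays), each with RNA pooled from 10 rats. Because no tissue had separate animals at an age, the 4 ages served as the repeats of a tissue, and all p-values below measure only the spread between arrays.

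The anterior pituitary holds somatotropes, lactotropes, thyrotropes, gonadotropes and corticotropes, each named for the hormone it secretes. Pou1f1, also called Pit-1, is a POU-domain factor required for somatotropes, lactotropes and thyrotropes, and it activates the growth hormone and prolactin genes, whereas Pitx1 is a homeodomain factor that acts across most anterior pituitary lineages. Ghrhr on somatotropes, Gnrhr on gonadotropes and Trhr on thyrotropes and lactotropes are receptors that couple to G proteins and receive releasing hormones from the hypothalamus, and Drd2 carries the dopamine signal that restrains prolactin secretion.

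Values are MAS5.0 signals, the linear brightness of a probe set after the authors scaled every array to the same average. The array medians were 213 to 309, those of the pituitary 273 to 282, and 67.8% to 77.0% of probe sets reached a signal of 100 on an array. Arrays of the same tissue correlated at 0.884 to 0.983 across probe sets, and those of different tissues at 0.550 to 0.867. The bone array at 18 months stood apart at the low end of the scale: its 5th percentile of signal was 33.5, against 9.14 to 15.7 on the other arrays, so low signals on it were raised. The hormone genes matched the label of the pituitary, with a summed signal of 139909 to 163852 over 8 probe sets on the pituitary arrays and at most 6070 elsewhere. For tests, signals were floored at 100 and put on the log2 scale, and 14031 probe sets that reached 100 on at least 4 arrays were fitted with limma. Of the 11 member probe sets 9 passed this filter. The other two were for Trhr: 1370736_s_at had signals of 15.7 to 140 and reached 100 only on 3 liver arrays, and 1387682_at stayed between 1.65 and 13.7. Since bulk RNA was measured, fewer cells of a type and less RNA per cell cannot be told apart.

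Pou1f1 was the member that separated the pituitary from the other tissues by the widest margin. Its probe set 1369761_at gave pituitary signals of 2361 at 4 months, 1607 at 10 months, 1356 at 18 months and 1791 at 24 months (mean 1779 ± 427, SD, n = 4), against 5.17 to 99.4 on the other 20 arrays. Its probe set 1369762_at gave 2273, 2445, 2130 and 2680 at the same ages (mean 2382 ± 237, SD, n = 4), against 3.07 to 102 elsewhere, where the only array past 100 was spleen lymphocyte. The pituitary arrays and the others did not overlap for either probe set. After flooring, the pituitary exceeded the mean of the other 5 tissues by 4.12 and 4.57 on the log2 scale, that is, at least 17.4-fold and at least 23.7-fold. These are lower bounds because almost all arrays of the other tissues stood at the floor, and the differences became 5.07 and 5.52 with a floor of 50 and 3.12 and 3.57 with a floor of 200. Both probe sets passed the filter only through the 4 pituitary arrays, which fixed the outcome of a test, so that they are given as a description. Both Pou1f1 probe sets followed each other closely over the 24 arrays (Pearson r = 0.997, a value carried by the pituitary arrays).

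Pitx1 was also higher in the pituitary, by a smaller margin. Its signals there were 576, 538, 470 and 545 at 4, 10, 18 and 24 months (mean 532 ± 44.5, SD, n = 4), and the other 20 arrays gave 32.3 to 180, with 6 of them at 100 or more. No other array reached a pituitary array. The difference was 2.25 (SE 0.15, limma adjusted p = 1.88e-10) on the log2 scale, at least 4.76-fold. Liver was next, with signals of 112, 71.3, 180 and 178, and the pituitary exceeded it by 1.95 (limma adjusted p over 15 pairs of tissues = 4.51e-08).

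**Figure D1:**
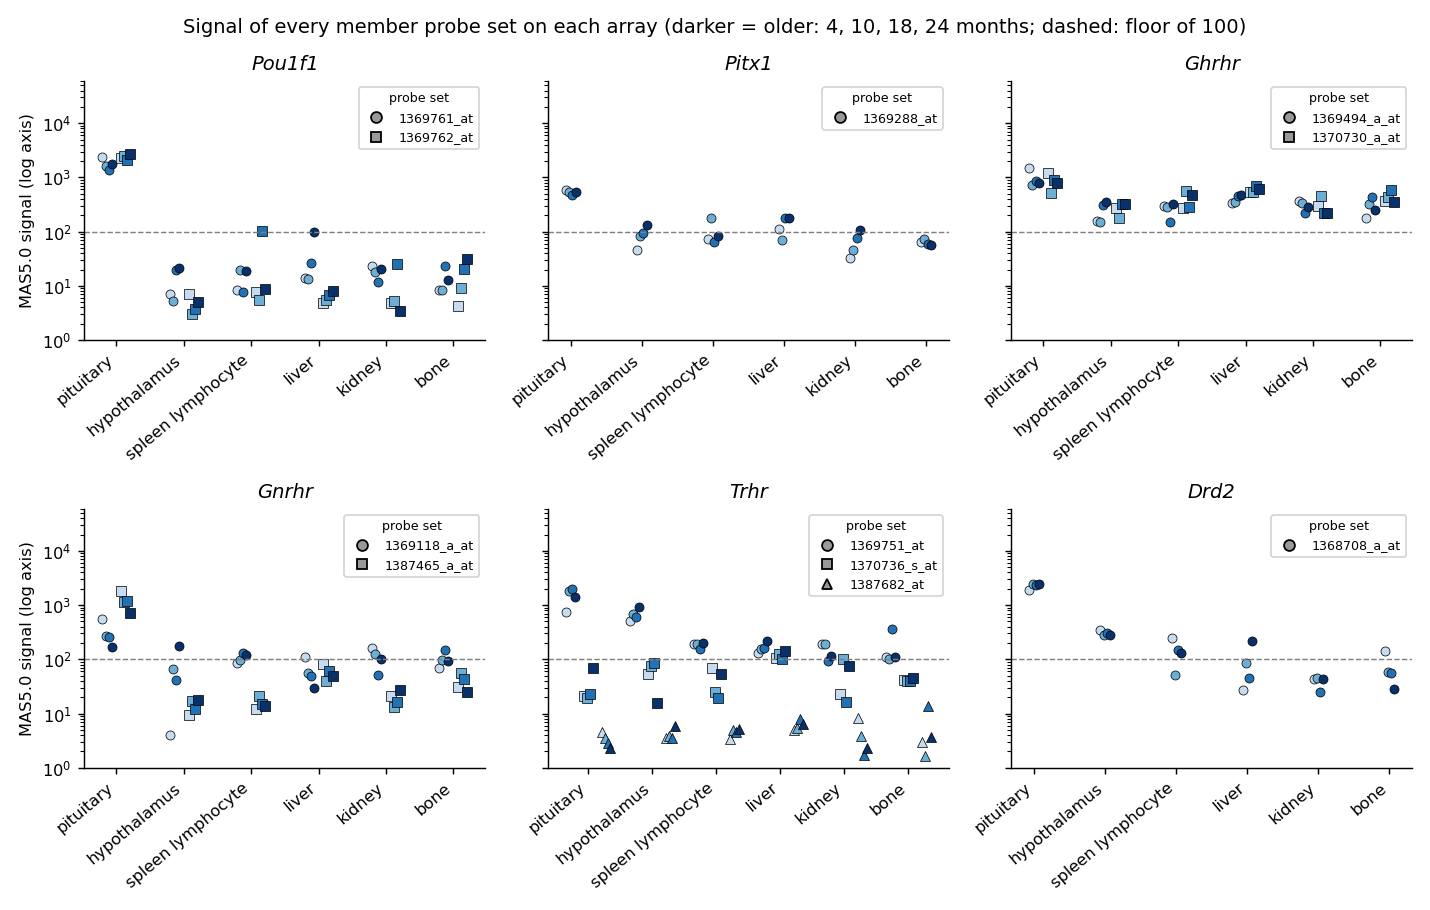
Signal of every member probe set on each of the 24 arrays (vertical log axis, MAS5.0 signal units), grouped by tissue, with darker points for older rats and 1 marker shape a probe set. The dashed line is the floor of 100; Pou1f1, Pitx1 and Drd2 signals of the pituitary lie above all others, while both Ghrhr probe sets lie above the floor in every tissue.

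The receptor genes differed from each other in how far they were restricted to the pituitary. Gnrhr, the receptor of gonadotrope cells, had pituitary signals of 1851, 1126, 1176 and 730 at 4, 10, 18 and 24 months with probe set 1387465_a_at (mean 1221 ± 465, SD, n = 4), and all other arrays were between 9.52 and 80.4. That difference was 3.53 on the log2 scale, at least 11.6-fold, and is given as a description because this probe set, like those of Pou1f1, passed the filter only through the pituitary. With probe set 1369118_a_at the Gnrhr signals were 545, 273, 255 and 171 (mean 311 ± 162, SD, n = 4), and those elsewhere ranged from 3.99 to 176, with 8 of 20 arrays at 100 or more. Here the groups overlapped at their edge, since the hypothalamus at 24 months (176) passed the pituitary at 24 months (171). The difference of 1.34 (SE 0.21, limma adjusted p = 1.61e-05), at least 2.53-fold, still passed the test, and became 0.56 with a floor of 200.

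Drd2, the receptor through which dopamine acts on lactotropes, had pituitary signals of 1867, 2445, 2335 and 2495 at 4, 10, 18 and 24 months (mean 2286 ± 287, SD, n = 4). The hypothalamus, where dopamine neurons also carry this receptor, gave 344, 280, 306 and 287 (mean 304 ± 28.5, SD, n = 4). Spleen lymphocyte gave 248, 51.5, 147 and 130, liver 27.1, 86.0, 44.5 and 213, bone 141, 58.0, 56.2 and 28.1, and kidney 24.5 to 45.3. The pituitary thus lay above every other array, and the hypothalamus above every array of the remaining tissues. The pituitary exceeded the mean of the other 5 tissues by 3.99 (SE 0.18, limma adjusted p = 4.19e-13), at least 15.9-fold. It exceeded the hypothalamus alone by 2.90 (SE 0.24, adjusted p = 1.55e-09), and the hypothalamus in turn exceeded spleen lymphocyte by 1.04 (adjusted p = 0.000934), both with limma over 15 pairs of tissues.

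Trhr was highest in the pituitary, followed by the hypothalamus. Probe set 1369751_at gave pituitary signals of 735, 1821, 1955 and 1439 at 4, 10, 18 and 24 months (mean 1487 ± 547, SD, n = 4) and hypothalamus signals of 507, 679, 594 and 908 (mean 672 ± 172, SD, n = 4). These tissues overlapped, as the pituitary at 4 months (735) was below the hypothalamus at 24 months (908). Spleen lymphocyte gave 193, 191, 156 and 199, liver 131, 154, 161 and 221, kidney 190, 188, 92.2 and 115, and bone 109, 101, 363 and 111. None of these arrays reached the hypothalamus, and the highest was the bone array at 18 months. That array had raised low signals, and their part in this Trhr value was not tested. Trhr was higher in the pituitary than in the mean of the other 5 tissues by 2.73 on the log2 scale (SE 0.27, limma adjusted p = 4.97e-08), and higher than in the hypothalamus by 1.09 (SE 0.35, limma adjusted p over 15 pairs of tissues = 0.0134). The hypothalamus was 1.84 above spleen lymphocyte (limma adjusted p = 0.000155). Beside this, the hypothalamus arrays also carried Cga signals of 2322 to 4647 and Tshb signals of 370 to 795, genes of the thyrotrope hormone, while Gh1 (49.4 to 146) and Prl (17.8 to 123) were low there; the part of pituitary cells in the hypothalamic Trhr and Drd2 signals was not tested.

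Ghrhr, the receptor of somatotrope cells, was above the floor in every tissue, and its probe set 1370730_a_at had the smallest pituitary difference of the members. Probe set 1369494_a_at gave 1483, 740, 860 and 779 in the pituitary at 4, 10, 18 and 24 months (mean 965 ± 348, SD, n = 4). The next tissue was liver with 332, 355, 445 and 480, then kidney with 371, 341, 220 and 287 and bone with 181, 327, 435 and 255. Spleen lymphocyte gave 300, 289, 152 and 327 and hypothalamus 159, 154, 313 and 358. None of these 5 tissues differed from its neighbour in the order beyond the spread of the arrays, but hypothalamus minus liver, the ends of that order, was -0.80 (SE 0.33, limma adjusted p = 0.0491). All 4 pituitary arrays exceeded all others with this probe set, by a mean of 1.68 (SE 0.25, limma adjusted p = 1.28e-05), or 3.21-fold. Probe set 1370730_a_at gave pituitary signals of 1189, 523, 908 and 779 (mean 850 ± 277, SD, n = 4) and liver signals of 544, 529, 707 and 610, so that the pituitary at 10 months was below all of the liver arrays. The remaining tissues ranged from 175 in hypothalamus to 592 in bone, and liver was above both hypothalamus (hypothalamus minus liver -1.15, SE 0.30, limma adjusted p = 0.00326) and kidney (liver minus kidney 1.06, SE 0.30, limma adjusted p = 0.00610). Its difference from the other 5 tissues was 1.12 (SE 0.23, limma adjusted p = 0.000461), or 2.18-fold. Against liver alone 1369494_a_at differed by 1.22 (SE 0.33, adjusted p = 0.00387), whereas 1370730_a_at differed by 0.46 (SE 0.30, adjusted p = 0.237), short of the threshold in limma over 15 pairs of tissues. Hepatocyte markers were not high in the pituitary, where their summed signal over 7 probe sets was 654 to 819, against 216473 to 229454 in liver.

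**Figure D2:**
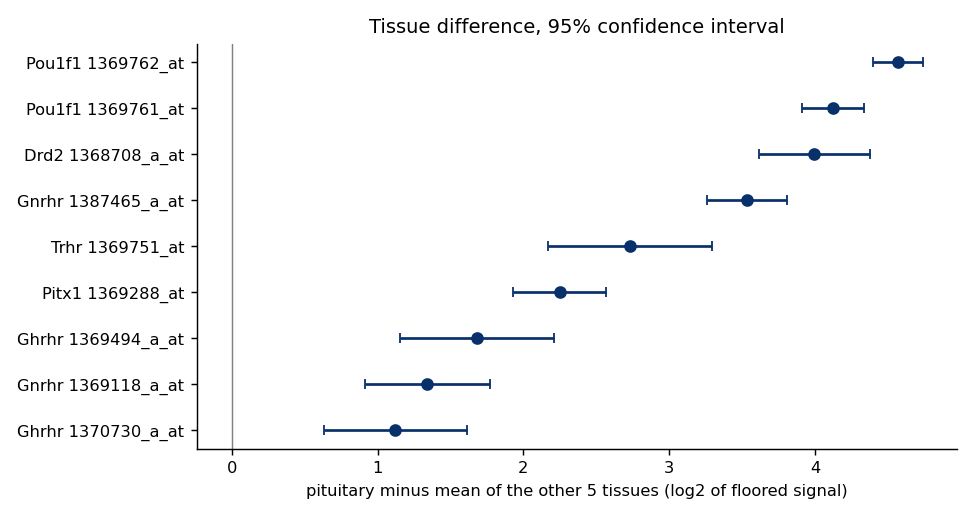
Difference of the pituitary from the mean of the other 5 tissues for the 9 member probe sets tested (horizontal axis, log2 of floored signal), with points for the limma estimate and bars for its 95% confidence interval. The estimates ran from 1.12 for Ghrhr 1370730_a_at to 4.57 for Pou1f1 1369762_at, and no interval reached 0; both Pou1f1 probe sets and Gnrhr 1387465_a_at passed the filter only through the pituitary.

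Of the 9 member probe sets tested, 6 would have passed the filter through the other tissues alone, those of Pitx1, Drd2, Trhr and Ghrhr and Gnrhr 1369118_a_at. All 6 were called higher in the pituitary, where 28.8% of all probe sets tested (4034 of 14031) were called higher and 2861 lower. Among the 13818 probe sets that passed without the pituitary 28.6% were called higher, and their median difference was 0.05, against 1.97 over the 6 members. The split of all calls depended on the scaling: 58.5% of calls were higher with the deposited scaling, 49.4% after quantile normalization and 41.7% after centring each array on its median, which moved the median of all probe sets from 0.05 to -0.06 and -0.10. The 6 member probe sets were called higher under each of these scalings. By pairs of tissues, 6 of the 6 were called higher than in hypothalamus (background 22.6%), in spleen lymphocyte (28.7%), in kidney (29.4%) and in bone (25.9%), and 5 than in liver (34.6%), where Ghrhr 1370730_a_at was not called. Every pituitary array was above every other array for 3 of the 6, namely Pitx1, Drd2 and Ghrhr 1369494_a_at, which held for 3.78% of all probe sets tested and 3.59% of those that passed without the pituitary. Below the pituitary, only the steps from hypothalamus to spleen lymphocyte for Drd2 and Trhr passed the test between neighbours in the order of tissues.

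The genes most like the members were taken as the 3 with the highest Pearson correlation over the 24 arrays, which share their RNA pools within an age and are dominated by the contrast of pituitary with the rest. For Pou1f1 they were Calcb (r = 0.996), Prl (0.995) and Gh1 (0.994). For Gnrhr they were Pomc (0.992), Pou1f1 (0.992) and Prl (0.986). The probe sets used for Pou1f1 and Gnrhr passed the filter only through the pituitary and stood at or near the floor elsewhere. A high r with other genes seen mainly in the pituitary therefore followed from the flooring and says nothing of regulation. The genes most like Pitx1 were Nrg1 (0.965), Pou1f1 (0.951) and Rem2 (0.946). Drd2 was most like Tshb (0.974), Mtus2 (0.953) and Asic4 (0.953), Trhr like Celsr3 (0.955), Nrcam (0.950) and Cga (0.949), and Ghrhr like Lhb (0.862), Spryd4 (0.844) and Elapor1 (0.840). The correlations of Ghrhr were thus lower than those of the other members. Between both probe sets of a gene r was 0.997 for Pou1f1, 0.875 for Gnrhr and 0.832 for Ghrhr.

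The promoters of the receptor genes, together with that of Prl, a known direct target of Pou1f1, are shown because these genes were high in the same tissue. RefSeq gave windows for 3 of the 7 members, and the 250 bases before each transcription start are printed in the GRCr8 build on the strand of the gene. The annotated Ghrhr gene began at 85830345, so its first window crossed that position and its second lay inside the gene. Capitals mark the matches to 6 motifs searched on both strands.
Prl, chr17:38298218-38298467, minus strand: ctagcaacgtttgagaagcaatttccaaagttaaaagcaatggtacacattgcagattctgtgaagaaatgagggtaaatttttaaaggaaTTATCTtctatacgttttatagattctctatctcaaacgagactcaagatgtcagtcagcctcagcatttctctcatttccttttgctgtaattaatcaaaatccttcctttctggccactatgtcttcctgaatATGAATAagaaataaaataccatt
Gnrhr, chr14:22211416-22211665, plus strand: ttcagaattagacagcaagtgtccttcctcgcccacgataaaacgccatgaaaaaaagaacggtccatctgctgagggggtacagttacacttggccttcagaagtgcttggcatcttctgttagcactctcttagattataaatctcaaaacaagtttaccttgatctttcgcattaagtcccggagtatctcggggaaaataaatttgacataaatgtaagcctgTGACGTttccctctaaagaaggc
Drd2, chr8:58605153-58605402, plus strand: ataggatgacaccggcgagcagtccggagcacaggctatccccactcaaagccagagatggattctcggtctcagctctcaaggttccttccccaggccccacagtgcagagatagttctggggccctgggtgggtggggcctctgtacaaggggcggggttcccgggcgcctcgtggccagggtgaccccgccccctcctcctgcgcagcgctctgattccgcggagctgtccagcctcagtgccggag
Ghrhr, chr4:85830236-85830485, plus strand: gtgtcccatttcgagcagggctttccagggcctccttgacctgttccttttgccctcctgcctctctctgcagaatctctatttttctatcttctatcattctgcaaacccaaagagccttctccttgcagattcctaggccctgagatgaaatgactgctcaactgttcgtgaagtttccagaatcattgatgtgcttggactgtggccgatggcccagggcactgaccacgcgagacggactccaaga
Ghrhr, chr4:85849655-85849904, plus strand: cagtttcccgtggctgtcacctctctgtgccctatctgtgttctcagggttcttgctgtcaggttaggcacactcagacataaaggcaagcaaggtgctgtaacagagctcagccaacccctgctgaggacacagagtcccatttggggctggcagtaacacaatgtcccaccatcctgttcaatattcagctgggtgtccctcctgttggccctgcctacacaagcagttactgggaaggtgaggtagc

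In the Prl window the Pou1f1 motif ATGNATA was matched from 24 to 18 bases before the start, a motif found in 8.73% of the 33469 promoter windows, and the GATA motif AGATAA was matched on the other strand from 159 to 154 bases before the start (10.3% of windows). In the Gnrhr window the cyclic AMP response motif TGACGT was matched from 23 to 18 bases before the start (6.95% of windows). Neither Ghrhr window nor the Drd2 window held any of the 6 motifs, the others being TAATCC for Pitx factors (6.34% of windows), TGANTCA for AP-1 (6.34%) and TGACCTTG for the steroidogenic factor (1.33%). Most bases before the annotated start of Ghrhr lay outside both of its windows, so a lack of motifs there cannot be read from them. These matches describe letters in a window and were not tested as binding sites.

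The members stood within a wider set of pituitary genes, described by lists of related function, in which some probe sets also passed the filter only through the pituitary (2 of the hormones, 2 of the processing and granule proteins, 3 of the receptors and 1 of the signalling genes). All 8 probe sets tested for the 7 anterior pituitary hormone genes were higher in the pituitary, with a median difference of 6.10. The 6 of them that passed without the pituitary were all higher, against 28.6% of all such probe sets. Differences ran from at least 2.45 for Pomc and 4.68 for Lhb to at least 8.24 for Gh1 and 8.24 for Prl. Pomc was at most 35.5 on every other array, so its value is a bound set by the floor and its rank among the hormones is not known. Of the 14 tested for prohormone processing and granule proteins, the class to which Pcsk1 belongs, 11 were higher and none lower, with a median of 3.50. Among the 12 of them that passed without the pituitary 9 were higher (75.0%), with a median of 4.41. Chgb, a granule matrix protein, differed by 6.09 and Scg5, the chaperone of the convertase Pcsk2, by 5.60, while the broadly expressed convertases Furin (0.34, limma adjusted p = 0.129) and Pcsk7 (-0.09, adjusted p = 0.680) were not called. Pcsk2 itself, the convertase that acts after Pcsk1 on Pomc, had pituitary signals of 454 to 567 and was higher by 2.14.

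Among the other pituitary transcription factors 7 of 10 probe sets tested were higher and none lower, with a median difference of 1.49. All 10 passed without the pituitary, and 28.6% of all probe sets that did so were higher. Nr4a1, an orphan nuclear receptor induced by releasing hormones, differed by 2.64 and Tbx19, the factor of corticotropes, by 2.05. Nr4a1 overlapped with other tissues, at 2364 to 3329 in the pituitary and up to 2951 elsewhere. Otx2 (-0.21, limma adjusted p = 0.509) and Sox3 (-0.17, adjusted p = 0.321) were not called. Nr5a1, the steroidogenic factor of gonadotropes, was not above the floor in the pituitary, with signals of 5.10 to 9.94, although the gonadotrope genes Gnrhr and Lhb were high there. Of the 20 probe sets for other receptors of hypothalamic and feedback hormones 7 were higher and none lower, with a median of 0.25. Among the 17 of them that passed without the pituitary 35.3% were higher, near the 28.6% of all such probe sets. Avpr1b, the vasopressin receptor of corticotropes, differed by 1.95 and Adcyap1r1, the PACAP receptor, by 1.92, whereas Nr3c1 (-0.15, adjusted p = 0.406) and Galr2 (-0.36, adjusted p = 0.194) were not called.

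The signalling genes downstream of these receptors were more often higher than lower, with 12 of 16 probe sets for G proteins and cyclic AMP signalling higher, 1 lower and a median of 0.69. Among the 15 of them that passed without the pituitary 11 were higher (73.3%, against 28.6% of all such probe sets), with a median of 0.72. Gnas, the stimulatory G protein used by Ghrhr, differed by 2.14 and Crem, a cyclic AMP responsive factor, by 2.23. The 2 genes of lowest difference in this list were Gnai1 and Gnai2, inhibitory G proteins to which Drd2 couples. Gnai1 was lower in the pituitary (-0.81), a bound because its pituitary signals of 30.7 to 91.1 all stood at the floor. Gnai2 (0.33, limma adjusted p = 0.165) was not called. They do not stand for all such G proteins of the list, in which Gnao1 had pituitary signals of 381 to 458. The hypothalamic ligands differed in direction against the mean of the other 5 tissues. By this measure 2 of 13 probe sets were higher in the pituitary, Gal (1.22, limma adjusted p = 0.00196) and Tac1 (0.96, limma adjusted p = 0.0118). All 13 passed without the pituitary, and their share of 15.4% stood against 28.6% of all such probe sets. However, Gal reached 2421 on an array of another tissue, against 593 to 1022 in the pituitary. Tac1 reached 1196 on an array of another tissue, against 97.6 to 634 in the pituitary. The 5 lower probe sets included those of Ddc (-1.43) and Sst (-0.99, a bound because its pituitary signals were 27.7 to 79.4). The ligands of the members were on the hypothalamus arrays, with Ghrh at 216 to 295 and Trh at 460 to 649, and below 100 in the pituitary, at 13.3 to 55.8 and 29.9 to 78.3. Gnrh1 overlapped between the tissues, with 124 to 204 in hypothalamus and 78.0 to 178 in pituitary.

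**Figure D3:**
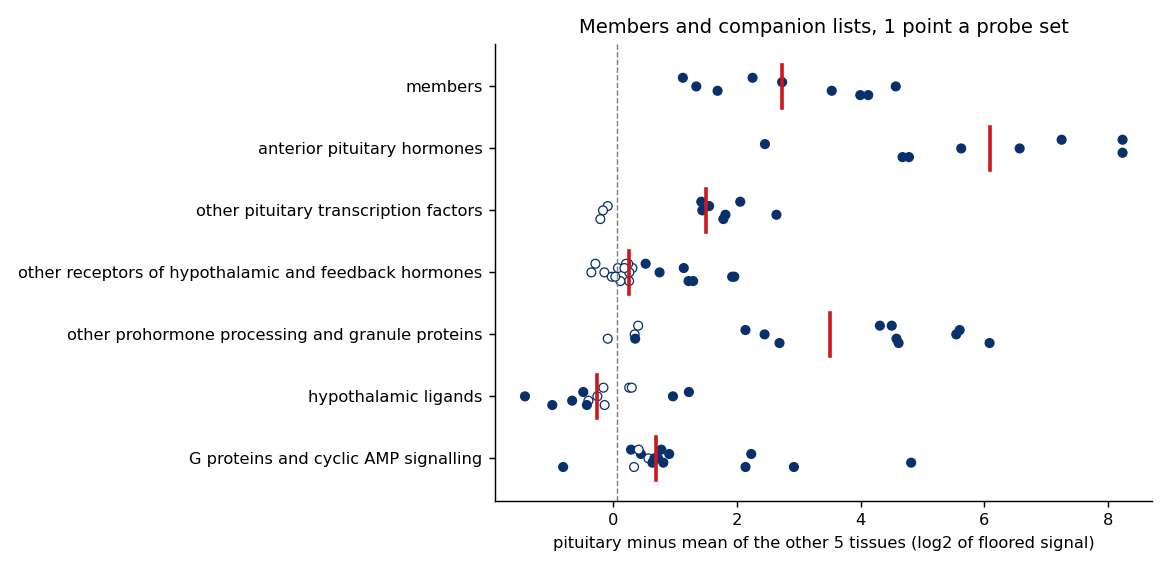
Difference of the pituitary from the mean of the other 5 tissues (horizontal axis, log2 of floored signal) for the members and 6 lists of related genes, with 1 point a probe set, filled where limma called it, a red bar for the median of the list and a dashed line for the median of all probe sets. The 9 member probe sets tested run from 1.12 to 4.57, and 3 of them passed the filter only through the pituitary. The medians of the prohormone processing proteins and the other transcription factors are 3.50 and 1.49. That of the processing proteins includes 2 probe sets that passed only through the pituitary, and is 4.41 without them.

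Whether these genes changed with age was examined by comparing the late ages (18 and 24 months) with the early ages (4 and 10 months) in the pituitary. No member was called, and none of the 14031 probe sets was (0.0%), although 364 had an unadjusted p under 0.05 in limma. The lowest member p-values were those of Gnrhr, the signal of which went from 545 at 4 months to 171 at 24 months with 1369118_a_at, each age being lower than the one before. Its late minus early difference was -0.88 (95% confidence interval -1.53 to -0.24, limma unadjusted p = 0.0103, adjusted p = 1.0). With 1387465_a_at the Gnrhr difference was -0.64 (95% confidence interval -1.11 to -0.17, limma adjusted p = 1.0), with signals of 1851, 1126, 1176 and 730. All other arrays of this probe set were below 100, and the fit shared its spread over all tissues. The floor therefore narrowed this interval, which does not measure the spread within the pituitary. For 1369118_a_at 8 of 20 other arrays were at 100 or more, so its spread was also partly set by the floor. For 1369118_a_at both late arrays were below both early ones, as for 15.7% of all probe sets, while 1387465_a_at overlapped because 18 months (1176) was above 10 months (1126). No member had both late arrays above both early ones, which held for 14.7% of all probe sets.

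The Gnrhr difference was smaller without the youngest array. Without the pituitary array at 4 months the late minus early differences were -0.39 and -0.28, and without that at 10 months -1.38 and -1.0 (limma adjusted p = 0.305 for both), settings chosen after the data had been seen. In the mean of the other 5 tissues the same contrast was 0.09 and 0.00, where most Gnrhr signals were at the floor. The pituitary difference minus that of the other tissues was -0.97 and -0.64, and no probe set was called in this comparison either (0.0% of 14031, with 457 at an unadjusted p under 0.05 in limma). The gonadotropin genes gave late minus early differences of -0.24 for Lhb and of -0.44 and -0.53 for both Fshb probe sets (adjusted p = 1.0), with Lhb signals of 9397, 9095, 8829 and 6927 at the 4 ages.

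For the other members the intervals of the late minus early difference in the pituitary all held 0. They were -0.72 to 0.07 for Pou1f1 1369761_at, -0.31 to 0.35 for Pou1f1 1369762_at, -0.60 to 0.33 for Pitx1 and -0.56 to 0.91 for Drd2 on the log2 scale. These 4 intervals left out a difference of 2-fold in either direction, but their spread was shared over all tissues. Both Pou1f1 probe sets stood at the floor on almost all other arrays, which narrowed that spread. Their intervals therefore do not bound the change within the pituitary. Pitx1 and Drd2 were below 100 on many other arrays, so the same limit holds for them in part. The interval of Ghrhr 1370730_a_at, -0.74 to 0.92, left out a 2-fold difference as well. Those of Ghrhr 1369494_a_at, -1.12 to 0.41, and of Trhr, -0.39 to 1.46, did not. Outside the pituitary the late minus early difference of Ghrhr 1369494_a_at in the hypothalamus was 1.10 (95% confidence interval 0.34 to 1.87, limma adjusted p = 0.130), from signals of 159 and 154 at the early and 313 and 358 at the late ages. The late and early hypothalamus arrays of this probe set did not overlap, but the adjusted p missed the threshold. The second Ghrhr probe set gave 278, 175, 322 and 327 there, a difference of 0.56 (adjusted p = 0.639).

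**Figure D4:**
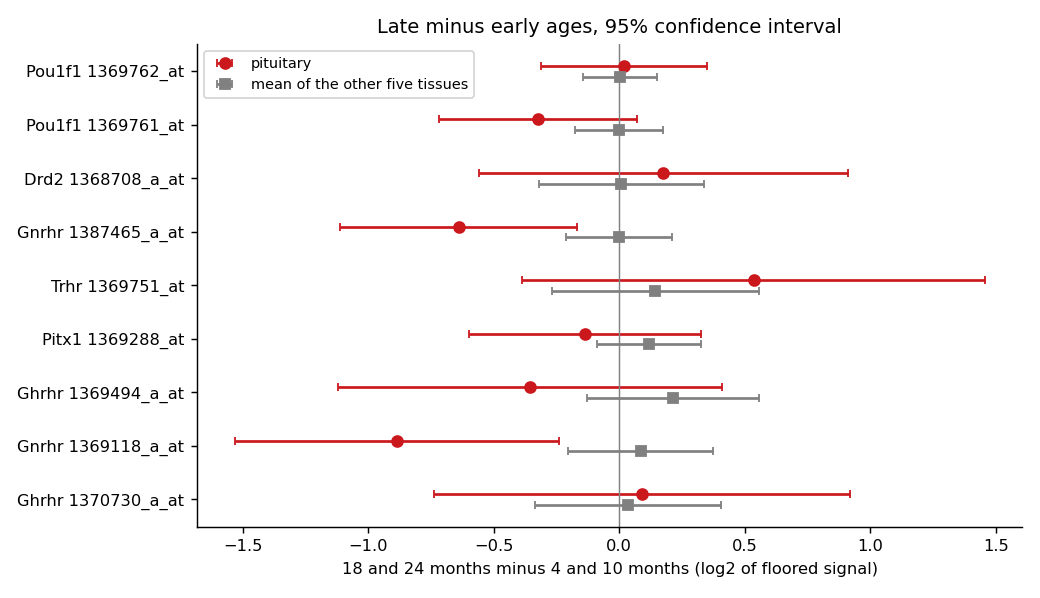
Late (18 and 24 months) minus early (4 and 10 months) difference of each member probe set (horizontal axis, log2 of floored signal) in the pituitary, as red circles, and in the mean of the other 5 tissues, as grey squares, with bars for the limma 95% confidence interval. Only the intervals of both Gnrhr probe sets in the pituitary leave out 0, and neither passed the adjustment over all probe sets. The spread is shared over all tissues, so intervals of probe sets at the floor elsewhere, as for Gnrhr 1387465_a_at and Pou1f1, are too narrow for the pituitary alone.

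Between consecutive ages, with 1 array a side and so no test, a change was counted where it was 2-fold or more and both arrays reached a signal of 100. All member changes of this size fell between 4 and 10 months. Of the 11233 probe sets with 100 on both arrays, 1.34% were higher and 1.26% lower over this step. Trhr 1369751_at went from 735 to 1821 (2.48 times, 1.31 on the log2 scale), the only member counted as higher. Ghrhr went from 1483 to 740 with 1369494_a_at (a ratio of 0.499) and from 1189 to 523 with 1370730_a_at (0.440), both counted as lower. Gnrhr 1369118_a_at, from 545 to 273, had a ratio of 0.501, just outside the limit. Both Ghrhr probe sets therefore moved the same way, and Trhr moved the opposite way, in this interval.

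None of the members was counted from 10 to 18 months or from 18 to 24 months. Of the 11250 probe sets with 100 on both arrays at 10 and 18 months, 0.764% were higher and 0.613% lower. Of the 11293 such probe sets at 18 and 24 months, 0.567% were higher and 0.788% lower. Ghrhr 1370730_a_at came nearest from 10 to 18 months, from 523 to 908 (0.80 on the log2 scale), and Gnrhr 1387465_a_at from 18 to 24 months, from 1176 to 730 (-0.69). Over the whole span from 4 to 24 months the log2 difference was -1.67 and -1.34 for the Gnrhr probe sets 1369118_a_at and 1387465_a_at, -0.93 and -0.61 for those of Ghrhr, 0.97 for Trhr and 0.42 for Drd2. For Pitx1 it was -0.08, and for Pou1f1 -0.40 and 0.24, with opposite signs in its 2 probe sets. The highest pituitary signal was 1.22 times the lowest for Pitx1, 1.34 times for Drd2, 2.66 times for Trhr, 2.0 and 2.28 times for Ghrhr, and 3.18 and 2.53 times for Gnrhr.

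**Figure D5:**
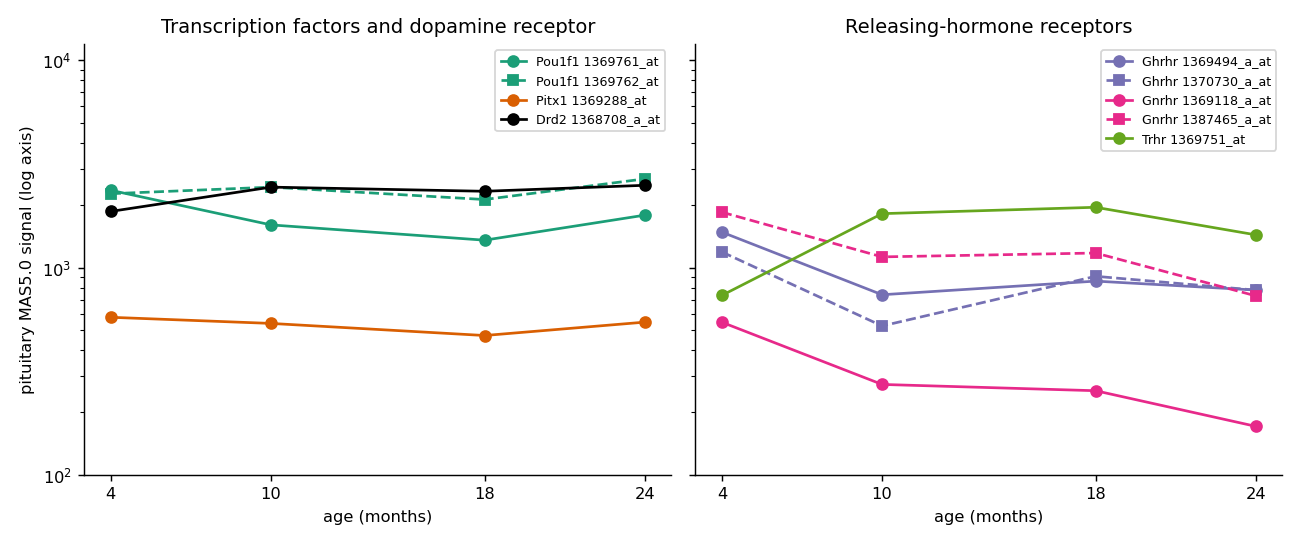
Pituitary signal of the 9 member probe sets tested (vertical log axis, MAS5.0 signal units) against age in months, with 1 array a point and no error bar because each age had 1 pool. Pitx1 and Drd2 stay within 1.22 and 1.34 times of their lowest value, both Ghrhr and both Gnrhr lines are lower at 10 than at 4 months, and Trhr goes from 735 to 1821.

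The pituitary array at 4 months also differed from the later ones in genes of other cell types. The summed signal of 7 connective tissue probe sets was 5615 at 4 months and 3458 to 3805 later, and that of 5 endothelial probe sets was 2143 at 4 months and 1412 to 1556 later. From 4 to 10 months Plvap, an endothelial gene, went from 522 to 124. Over the same step Col3a1, a fibrillar collagen, went from 981 to 279 and Lum, a matrix proteoglycan, from 532 to 189. The neurofilament gene Nefl was instead lowest at 10 months. Its signals were 1199, 444, 949 and 893 at 4, 10, 18 and 24 months with 1 probe set. Another Nefl probe set gave 774, 484, 782 and 652. The rise of the former from 10 to 18 months also passed the 2-fold limit (1.095 on the log2 scale). The sums of the other lists had ranges over the 4 pituitary arrays of 2603 to 3374 for leukocytes, 9862 to 15743 for red blood cells, 2520 to 2898 for astrocytes and pituicytes, 1340 to 1481 for oligodendrocytes and 10278 to 13037 for neurons. The ratio of the 3′ to the 5′ probe set of Gapdh, a sign of RNA quality, was 0.12 on the log2 scale at 4 months, the lowest of the 24 arrays, and 0.70, 0.45 and 0.68 at the later ages, while that of Actb was 1.98 to 2.42. The part of cell composition and of RNA quality in the changes of Ghrhr, Gnrhr and Trhr from 4 to 10 months was not tested. Within the related lists, the posterior pituitary peptides Avp (110 to 428) and Oxt (139 to 483) were higher at 10 than at 4 months by 1.96 and 1.80 on the log2 scale, as was Pcsk5 1392773_at (104 to 233), while another Pcsk5 probe set gave 117 and 123. At 18 months Avp was at 178. From 18 to 24 months Pomc went from 699 to 345, Oxt from 537 to 263, Tac1 from 634 to 310, and Creb1 1375655_at, for a cyclic AMP responsive factor, from 281 to 601, while another Creb1 probe set above 100 went from 140 to 163. No probe set of any of the 6 related lists was called between late and early ages in limma.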

How the data were processed

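RNA of 24 tissue pools, 1 for each of 6 tissues and 4 ages, was measured on Affymetrix RAE230A arrays, which are 3′-directed and tell no animal of a pool from another. The deposited values were MAS5.0 signal intensities, which the authors scaled globally to a fixed target; they are linear, and background subtraction makes their low end noisy. Here the signals were floored at 100 and put on the log2 scale, and probe sets at 100 or more on at least 4 of 24 arrays were kept. Control probe sets (57) were left out. Differences were fitted with limma (version 3.58.1, R 4.3.3), with tissue and age as terms for tissues and with tissue by stage (early, late) for age, and p-values were adjusted by Benjamini-Hochberg over all probe sets tested at a false discovery rate of 0.05. The fit was also run on simulated data with known shifts and independent noise, which does not copy the spread that arrays of shared pools may have in common. Samples were grouped by tissue label, and ages of a tissue stood in as its repeats. The replicate number equals the age, so the age block is the replicate block, and arrays of an age come from the same rats. Consecutive ages were compared by a limit of 2-fold, with no test. All member probe sets were named, with the 3 most correlated genes a member, and from each list the 2 highest and 2 lowest tissue differences and every gene past a limit with age. Members and lists were chosen with earlier results of these data known. Alternatives covered the floor, filter, scaling, array weights, block, fold limit and left-out arrays. Adrenal was not analysed here. Sequences came from RefSeq (GRCr8).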

Additional observations from a re-analysis of the deposited data

Results flagged for a closer look

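Within each tissue, the highest and lowest of the 4 arrays were compared with the others for member probe sets with all 4 arrays at 100 or more. This gave 24 groups, of which chance alone would mark about 1.2. In 3 an array stood out by the gap to the nearest array relative to the range of the group. Groups with an array below 100 were left out. Among them was Pou1f1 1369762_at in spleen lymphocyte, at 102 at 18 months and 5.44 to 8.56 at the other ages. Trhr 1369751_at in bone at 18 months was highest at 363, while the other bone arrays gave 101 to 111 (gap over range 0.931). The same array had the raised low signals given above, the part of which in this value was not tested. In spleen lymphocyte at 18 months Ghrhr 1369494_a_at was lowest at 152 against 289 to 327 at the other ages (0.841), and Trhr 1369751_at was lowest at 156 against 191 to 199 (0.839). No member marked in this way was a pituitary value.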

How the results depend on the processing

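The tissue calls of the 6 member probe sets that passed the filter without the pituitary held, in the same direction, under every alternative in which they were tested; the other 3 calls (9 in all) followed from the filter. Requiring 100 on 12 arrays left 5 member probe sets tested, and all 5 were called. Leaving out an array gave 7 to 9 member calls, the 7 arising when a pituitary array was left out because 2 probe sets then missed the filter. Over all probe sets the tissue calls numbered 6895, and without the replicate block (age) 6939; leaving out an array gave 5909 to 7098. Calls over pairs of tissues numbered 101265, without the replicate block 101916, and 97153 to 102379 when an array was left out. Late minus early calls in the pituitary (0) became 2 with a floor of 50, 28 with a floor of 200, 12 with no filter, 3 with array weights, 1 with trend and robust moderation, 1 with a straight line in months and 0 to 7 when an array was left out. Relative to the other tissues (0) they became 31 with a floor of 200, 17 with no filter, 3 with array weights, 1 with trend and robust moderation and 0 to 4 when an array was left out. Consecutive changes (600) became 3992 at 1.5-fold, 49 at 3-fold, 1496 with a minimum signal of 50 and 254 with 200. The cause of these moves was not tested. Gnrhr 1369118_a_at passed the 2-fold limit from 4 to 10 months after quantile normalization (-1.07) and median centring (-1.05), and none of the Ghrhr and Trhr changes passed 3-fold. The limits are the pools: with 1 array a tissue and age, animal and array spread cannot be separated, and signals near the floor give bounds.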
